A study of Mus musculus with 4 samples.

Results

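The cytosolic ribosomal protein genes were examined in mouse visual cortex after the loss of one eye. Members were picked by gene symbol alone, but the rule was set with earlier results of these data known. A probe set counted as a member when the platform's annotation table gave it a single symbol of the form Rpl or Rps followed by a number, or Rplp0, Rplp1, Rplp2 or Rpsa. The kinases named Rps6k were left out. This gave 49 probe sets for 35 genes, out of 8252 genes named by a single symbol on the array. Of the 35 genes, 17 belonged to the large subunit and 18 to the small subunit by name. Where a gene had several probe sets, the brightest over the 4 arrays stood for it. A filter on mean signal, which did not use the groups, kept 26 of the 35 genes, 12 large and 14 small, and 9 genes were too dim to test.

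The tissue came from 5 wild-type C57Bl6 mice. They lived in the dark until postnatal day 42, were enucleated on 1 side at that age, then had 4 days of a normal light-dark cycle and were killed at postnatal day 46. All groups share the dark rearing, the surgery and the return to light, so no array of a mouse with both eyes or of a light-reared mouse was part of the comparison. Visual cortex contralateral to the lost eye is called deprived and visual cortex ipsilateral to it non-deprived, with 2 arrays in each group, each of pooled tissue. The sources used here do not say how the mice were divided among the pools. The p-values therefore measure only the spread between these 4 arrays, which may be technical.

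Ribosomes are built in the nucleolus from ribosomal RNA and a full set of ribosomal proteins, most of them needed in equal numbers. The small subunit reads the messenger RNA and the large subunit joins the amino acids. Ribosomal protein messengers are among the most abundant in most cells, neurons included, and share a short pyrimidine tract at their 5′ end, the terminal oligopyrimidine or TOP tract, through which mTOR signalling sets their translation. The array reads messenger abundance and not its translation.

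Because this tract is known as a mark of the family, the 30 bases around the RefSeq transcript start (GRCm38.p6) are shown for the members with the largest differences between the groups. Each line has 10 bases before the start and 20 from it, on the strand of the gene. The longest run of C and T is in capitals, or the first of equal runs.
Rps13 (chr7:116334171-116334200, minus strand): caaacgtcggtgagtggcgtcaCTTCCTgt
Rps10 (chr17:27635225-27635254, minus strand): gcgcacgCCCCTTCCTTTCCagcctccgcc
Rps18 (chr17:33955646-33955675, minus strand): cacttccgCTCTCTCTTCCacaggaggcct
Rpl13a (chr7:45128726-45128755, minus strand): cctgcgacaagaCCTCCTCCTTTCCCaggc
Rps4x (chrX:102189372-102189401, minus strand): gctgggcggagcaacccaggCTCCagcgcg
Rpl19 (chr11:98026700-98026729, plus strand): aaacgCCCTCactgcgcatgtgcgccgcgg
Rps7 (chr12:28635934-28635963, minus strand): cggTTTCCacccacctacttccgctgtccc
Rps24 (chr14:24490668-24490697, plus strand): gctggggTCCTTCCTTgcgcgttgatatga
Rpl7 and Rpl8 belong to the same group of members. Runs of 13 and 11 pyrimidines span the listed start of Rps10 and Rps18, and a run of 14 begins at the third base of Rpl13a. In Rps4x and Rps13 the longest run was 4 and 6 bases. Where a gene had several listed starts, the one listed first is shown.

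Over the 28 members matched in the RefSeq promoter table, 5 (17.9%) had a listed start at a C followed by at least 4 pyrimidines, against 2.67% of 17492 protein-coding genes. Among the tested members these were Rps10, Rps18 and Rps27. The count asks for a C at the listed start itself. It therefore misses Rps24, with a run of 9 pyrimidines across its listed start, and the run near that of Rpl13a. So it is no count of members with a TOP tract. The letters CCGGAA, the core of an ETS-factor site, stood on either strand of the 300 bases around the start (250 before, 50 after) in 17 of 28 members (60.7%), against 20.9% of protein-coding genes. AGATGGC, part of the site of the factor YY1, stood on either strand in 7 of 28 (25.0%) against 6.95%. The TATA box letters TATAAA stood on either strand in 4 of 28 (14.3%) against 14.8%. A gene counted when any of its listed starts held the letters. These are counts of letters in a window and show no binding.

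The deposited values are MAS5 signals, in arbitrary units, for 12488 probe sets on a 1-colour Affymetrix array. Markers of neurons, interneurons, astrocytes, oligodendrocytes and microglia were among the tested probe sets. The 6 tested neuron markers were all lower in deprived cortex, with a summed signal of 28455 and 34424 in the deprived group against 35350 and 38602. Of 5 tested oligodendrocyte markers 4 were higher, with sums of 13276 and 12507 against 11404 and 10394. The 5 tested markers of striatum and thalamus were all higher on average, with sums of 3872 and 2877 against 2927 and 2783. Deprived array 1 was the highest array for 4 of them, and deprived array 2 the lowest for 4. Among the 5, Calb2 also counts as an interneuron marker. For 3 red blood cell genes, led by Hba-a1, deprived array 1 had the lowest sum at 3356 and deprived array 2 the highest at 8473, around 4259 and 5823 in the non-deprived group. Tested markers had passed the filter on mean signal, so their mean could not be at 0. RNA integrity was read from probe sets at both ends of control transcripts. For actin the 5′ over 3′ ratio was 0.544 and 0.463 in deprived and 0.638 and 0.632 in non-deprived cortex. That of Gapdh was 0.745 and 0.689 against 0.875 and 1.07. The transferrin receptor went the other way, at 0.269 and 0.474 against 0.270 and 0.0758. So the neuron sum and the ratios of actin and Gapdh were lower, and the oligodendrocyte sum higher, on both deprived arrays, and their part in the results on ribosomal proteins was not tested. In pooled tissue, fewer cells of a type and less RNA per cell cannot be told apart.

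Deprived and non-deprived cortex were compared to see how first visual experience through one eye is reflected in the transcripts of the cortex. The ribosomal protein genes were mostly a little higher in deprived cortex, and no single gene passed the test. Of 26 tested genes, 22 had a log2 fold change above 0 and 4 below 0, with a median of 0.18. Over all 7458 tested probe sets, 50.2% were above 0 and 49.8% below, and the median was 0.0015. Log2 fold changes here are deprived minus non-deprived on the log2(signal + 60.6) scale. In limma, 0 of the 26 genes passed an adjusted p of 0.05, against 0.107% of all probe sets, and 0 passed an unadjusted p of 0.05, against 5.43% (1.77% higher and 3.66% lower). The smallest adjusted p among the members was 0.94 (limma, Benjamini-Hochberg over all tested probe sets). Each of the 26 differences was smaller than 0.5 and lay within 2 standard errors of 0, and 17 lay within 1. The standard errors ran from 0.17 to 0.51, and the smallest unadjusted p, that of Rps10, was 0.072 in limma. An exact permutation test of 2 arrays against 2 cannot give a two-sided p under 0.333 for any gene.

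**Figure D1:**
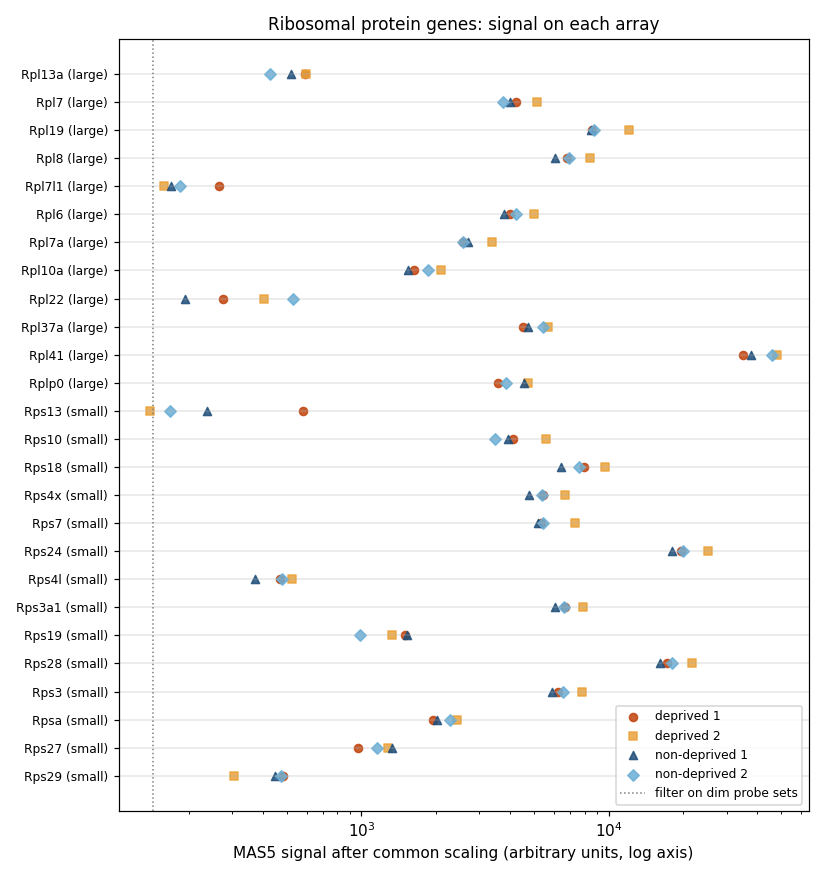
Signal of the 26 tested ribosomal protein genes (rows, subunit in brackets) on each of the 4 arrays, as MAS5 signal in arbitrary units on a log axis. Orange squares, deprived array 2, lie furthest right in 20 of the 26 rows. The dotted line is the filter on mean signal at 142.9.

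The small subunit held the largest differences. For Rps10, the deprived arrays gave signals of 4113 and 5594, and the non-deprived arrays 3913 and 3471 (array 1 first, here and for every gene). Both deprived values lay above both non-deprived values. The means were 4854 ± 1047 and 3692 ± 313 (SD, n = 2 per group), and the log2 fold change was 0.38 ± 0.19 (SE), or 1.30-fold (adjusted p = 0.94 in limma). It was 0.16 without deprived array 2 and 0.59 without deprived array 1. With the replicate number as a block in limma, Rps10 was the 1 member higher at an unadjusted p under 0.05, against 3.57% of all probe sets. Rps18, a protein of the head of the small subunit, had 7971 and 9683 against 6414 and 7584. The groups did not overlap, and the log2 fold change was 0.33 ± 0.19, or 0.19 without deprived array 2. Rps4x, encoded on the X chromosome, had 5408 and 6676 in deprived and 4745 and 5364 in non-deprived cortex, a log2 fold change of 0.25 ± 0.18. Its groups were just separate, with deprived array 1 next to non-deprived array 2, and the value was 0.10 without deprived array 2.

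Rps7 had 5345 and 7330 against 5197 and 5406, a log2 fold change of 0.24 ± 0.19. Only deprived array 2 stood apart for Rps7, and the groups overlapped. The probe set named Rps24 had 19643 and 25196 against 18098 and 19998, a log2 fold change of 0.23 ± 0.24, and its groups overlapped too. The annotation gives this probe set the same source accession as a probe set of Rpl7, so which of the genes it reads is uncertain. Rps13 had the largest difference and the least certain one. Its signals were 578 and 139.8 against 237.1 and 168.2, with the highest and the lowest value both in the deprived group, and a log2 fold change of 0.45 ± 0.51.

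Among the other small-subunit genes, Rps3a1 (0.19 ± 0.18) was the one whose arrays did not overlap. Rps3, which lines the channel where the messenger enters, gave 0.17 ± 0.19 and Rps28 0.18 ± 0.23. Rps19, the gene most often mutated in Diamond-Blackfan anaemia, gave 0.19 ± 0.22, and Rps4l 0.20 ± 0.27. Rpsa, also known as the laminin receptor, stood at 0.01 ± 0.18. The zinc-binding proteins Rps29 and Rps27 were the small-subunit genes below 0, at -0.22 ± 0.29 and -0.15 ± 0.20. Rps29 had 482.9 and 306.5 in deprived and 447.2 and 471.6 in non-deprived cortex, so deprived array 2 alone stood apart.

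In the large subunit, Rpl13a had 589.2 and 597 on the deprived arrays and 518.5 and 426.4 on the non-deprived arrays. The deprived arrays were nearly equal and both above the others, and the log2 fold change was 0.30 ± 0.24 (SE, n = 2 per group). Rpl13a is also known outside the ribosome, as part of a complex that silences inflammatory messengers. Rpl7 had 4214 and 5115 against 3993 and 3723, a log2 fold change of 0.26 ± 0.17 with groups that did not overlap, and 0.13 without deprived array 2. Rpl19 had 8535 and 12130 against 8475 and 8750, a log2 fold change of 0.24 ± 0.21. Its deprived array 1 fell between the non-deprived arrays, and array 2 made the difference. Rpl8 had 6798 and 8398 against 6086 and 6894, a log2 fold change of 0.22 ± 0.19, with overlap.

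Rpl6 and Rpl7a both gave 0.16 ± 0.18, and Rpl10a, a protein of the L1 stalk where spent transfer RNA leaves, 0.13 ± 0.19. Rpl7l1, a relative of Rpl7, gave 0.17 ± 0.46 at a low signal. The rest of the large subunit showed no difference beyond a small part of the error. Rplp0, the base of the acidic stalk that recruits elongation factors, had 3562 and 4720 against 4560 and 3841, a log2 fold change of -0.03 ± 0.19. Rpl41, which encodes a very short basic peptide and gave the brightest member probe set, had 34980 and 48064 against 37679 and 45925, or -0.02 ± 0.30. Rpl37a stood at 0.002 ± 0.18 and Rpl22 at 0.03 ± 0.41.

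**Figure D2:**
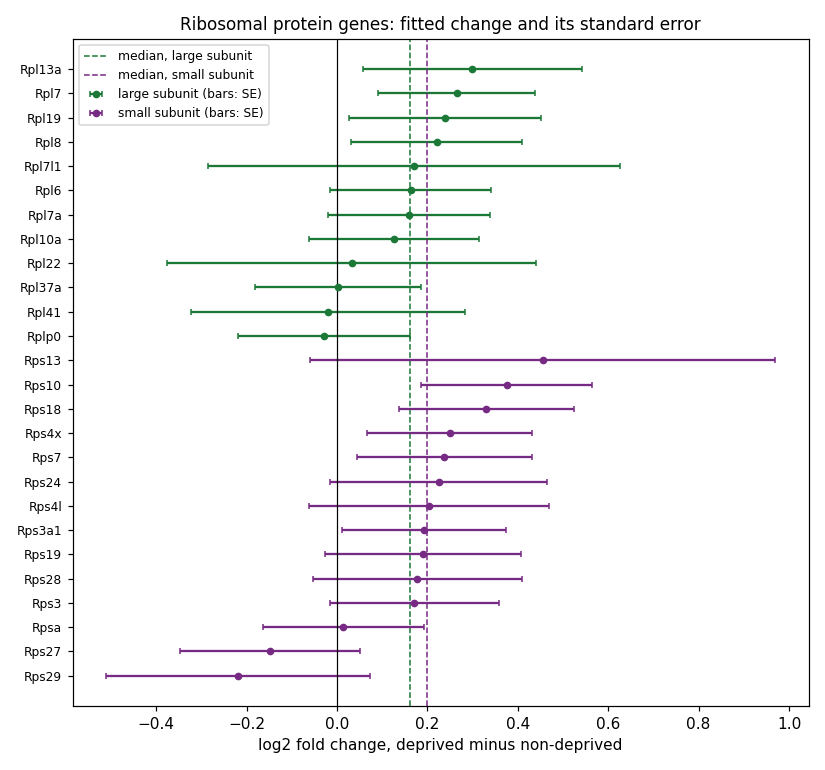
Log2 fold change, deprived minus non-deprived, of each tested ribosomal protein gene (points) with its standard error from limma (bars). Dashed lines are the medians, 0.16 for the large and 0.20 for the small subunit, and all but 4 of the points lie right of 0.

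The subunits had similar medians. The median log2 fold change was 0.16 over 12 large-subunit genes, of which 10 were above 0, and 0.20 over 14 small-subunit genes, of which 12 were above 0. The large median minus the small median was -0.04, against an SD of 0.03 for the same difference over the 4 ways to pair an array of each group. In the 4 pairs the large and small medians were 0.08 and 0.09, -0.05 and -0.002, 0.35 and 0.41, and 0.26 and 0.26. The small median was the higher in each pair here. After cyclic loess the large median was the higher in both pairs with deprived array 2 (0.21 against 0.18, and 0.15 against 0.14), and after quantile normalization in 1 of them (0.19 against 0.18). These pairs share arrays, and genes are not replicates. Arrays without overlap, both deprived values above both others, were seen for 2 large and 4 small genes. This is 6 of 26 (Rps10, Rps18, Rpl13a, Rpl7, Rps4x and Rps3a1), against 15.1% of all tested probe sets. For the opposite order the count was 0 of 26, against 17.1%. Of 806 other probe sets with a mean signal of at least 2000, 132 were in the first order and 113 in the opposite one.

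The array pairs were far from equal, and those with deprived array 2 gave the larger differences. Deprived array 1 exceeded non-deprived array 1 for 19 of 26 genes (51.0% of all probe sets), with a median log2 difference of 0.09. It exceeded non-deprived array 2 for 10 of 26 (51.5% of all probe sets), with a median of -0.02. Deprived array 2 exceeded non-deprived array 1 for 21 (45.9% of all probe sets) with a median of 0.38, and non-deprived array 2 for 22 (49.7% of all probe sets) with a median of 0.26. The arrays of the deprived group also differed from each other. Deprived array 2 was above deprived array 1 for 22 of 26 genes (47.9% of all probe sets), with a median of 0.31, which is more than the difference between the groups. Non-deprived array 2 was above non-deprived array 1 for 18 of 26 (47.7% of all probe sets), with a median of 0.13. The difference between the deprived arrays was larger than the fitted difference between groups for 22 of 26 genes. For the difference between the non-deprived arrays this held for 9 of 26. The share over all tested probe sets was not computed, so these counts have no background to be read against. Without deprived array 2 the median was 0.03, with 17 of 26 genes above 0 (51.7% of all probe sets), and without deprived array 1 it was 0.31. With deprived array 1 left out, 9 genes were higher at an unadjusted p under 0.05 in limma, against 3.98% of all probe sets. With deprived array 2 left out 1 was, against 5.60%.

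Bright probe sets in general stood high on deprived array 2. The member probe sets were bright, with a median signal of 4254, above 95.6% of the tested probe sets. Deprived array 2 gave the highest value for 17 of the 17 members with a mean signal of at least 2000. It also gave the highest value for 57.1% of the 806 other probe sets at least as bright, against 24.4% of all tested probe sets. Those 806 bright probe sets were higher on deprived array 2 than on deprived array 1 by a median of 0.24. That median was 0.34 for the 17 members at least as bright, 0.02 for the 9 dimmer members and 0.31 for all 26. Between the groups, however, the 806 had a median log2 fold change of 0.006, with 52.0% above 0. The red blood cell genes had their highest sum on deprived array 2 as well, the actin and Gapdh ratios had their lowest values there and the transferrin receptor ratio its highest, and the part of these in the result was not tested.

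Normalizations that adjust each array by brightness brought the 4 pairs close together, with each pair above 0. The values by pair were added after seeing the data. After quantile normalization the median differences of the members in the 4 pairs, in the same order, were 0.15, 0.12, 0.19 and 0.16. After cyclic loess they were 0.16, 0.14, 0.19 and 0.14. The other bright probe sets then had medians between -0.02 and 0.02 in each pair. The difference between the deprived arrays shrank to medians of 0.05 and 0.06. The median log2 fold change of the members was 0.18 under either normalization, with 22 and 21 of 26 above 0 (51.5% and 51.2% of all probe sets).

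**Figure D3:**
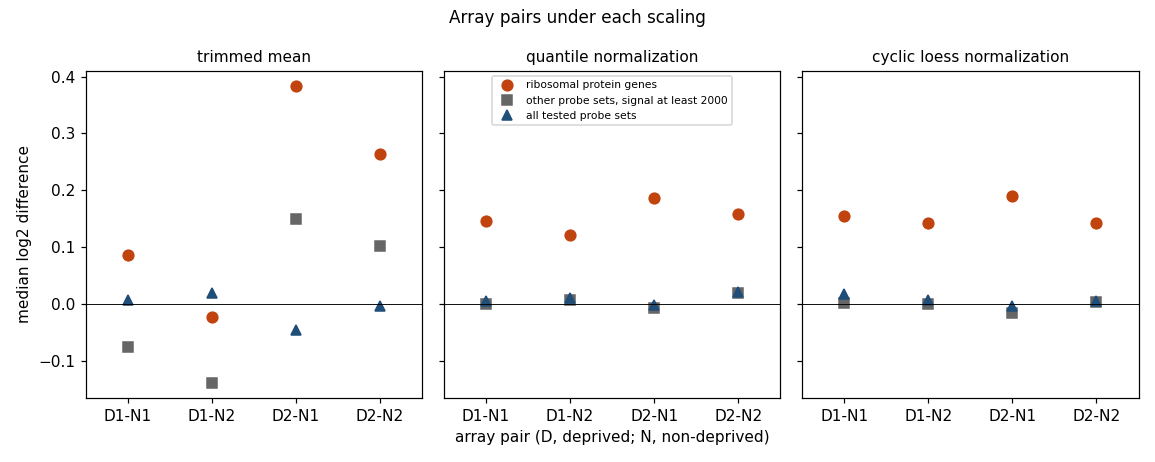
Median log2 difference between a deprived (D) and a non-deprived (N) array, for each of the 4 pairs, under each scaling (panels), for the 26 ribosomal protein genes (circles), 806 other bright probe sets (squares) and all 7458 tested probe sets (triangles). The circles run from -0.02 to 0.38 with the trimmed mean and from 0.12 to 0.19 after either normalization.

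With the arrays adjusted in this way, 13 of 26 genes had both deprived values above both non-deprived values, against 18.1% of all probe sets after quantile normalization and 17.8% after cyclic loess. The 13 were the same genes under both, 5 of the large and 8 of the small subunit, and included all 6 named above. The 7 added were Rpl19, Rpl6, Rpl8, Rps24, Rps28, Rps3 and Rps7. The opposite order was again seen for 0 of 26, against 16.9% and 17.2%. Of the 806 other bright probe sets, 177 and 174 were higher without overlap under the respective normalizations, and 164 and 172 lower. At an unadjusted p under 0.05 in limma, 5 genes were higher after quantile normalization (Rps10, Rps18, Rps24, Rps28 and Rps4x), against 2.61% of all probe sets. After cyclic loess there were 3 (Rps10, Rps18 and Rps24), against 2.53%. Quantile normalization sets values by rank, so very bright probe sets can share a value and show too small an error. Rps28 had 14.2563 on both deprived arrays there, and its p in limma was 0.093 after cyclic loess. No member passed adjustment over all probe sets, where the smallest adjusted p of a member was 0.59 and 0.64 in limma. Rps10 gave 0.35 ± 0.13 and 0.36 ± 0.13 (SE) under these normalizations, and Rps18 0.28 ± 0.09 and 0.31 ± 0.10.

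Further probe sets of the same genes were dimmer and less certain. For 7 genes more than 1 probe set was tested, which gave 8 further values with a median of 0.09, 5 of them above 0. The 3 probe sets of Rps28 gave 0.18, 0.18 and 0.11, and those of Rpl10a 0.13 and 0.33. Rps4x gave 0.25 and 0.07, and Rps24 0.23 and 0.26. Rpl19, Rps4l and Rpl22 had opposite signs in their probe sets, at 0.24 and -0.12, 0.20 and -0.26, and 0.03 and -0.19. The second probe sets of these 3 genes had standard errors from 0.42 to 0.60, so their sign is uncertain. The second probe sets of Rps4x and Rps24, which had the same sign as the first, were no more certain. Their standard errors were 0.63 and 0.61. With the dimmest tested probe set of each gene the median was 0.17, with 19 of 26 above 0.

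A further 35 tested probe sets carried several symbols, a ribosomal protein gene's among them, and are counted without names. Of these, 29 were above 0, with a median of 0.16. In limma 1 was higher at an unadjusted p under 0.05, against 1.77% of all probe sets. Deprived array 2 was above deprived array 1 by a median of 0.28 in these probe sets as well. Of the 26 tested single-symbol probe sets, 6 also had a name suffix that marks probes shared with other transcripts. Leaving these 6 out gave 20 genes, with a median of 0.17 and 17 above 0. When a dimmer probe set without a suffix stood in for Rps24, Rps28 and Rps4l, there were 23 genes, with a median of 0.17 and 19 above 0.

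The 9 genes too dim to test included 5 of the large subunit, with mean signals of 57.4 for Rpl32, 96.8 for Rpl35a, 94.3 for Rpl38, 60.4 for Rpl39 and 83.5 for Rpl39l. The 4 of the small subunit had 75.0 for Rps14, 44.1 for Rps15, 104 for Rps20 and 70.0 for Rps27l. Rpl39l and Rps27l are relatives of Rpl39 and Rps27. Signals of different probe sets do not give the relative level of their genes, so a low signal here is no measure of how much messenger was present. Rpl39l had 192.2 on deprived array 1 and 14.6 on array 2, opposite ends of its range. A fit with no filter on signal, which took in all 35 genes, had 29 above 0 with a median of 0.19 and 0 past an adjusted p of 0.05 (or an unadjusted p of 0.05) in limma.

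Other parts of the translation apparatus had medians nearer to 0 over the 4 arrays. Without deprived array 2 this held only for the initiation factors. With that array left out, the median was 0.03 for the cytosolic ribosomal proteins, 0.10 for the mitochondrial ones, 0.11 for ribosome biogenesis, 0.04 for the mTOR list, -0.01 for initiation factors, -0.20 for elongation and termination factors and -0.08 for nascent-chain handling. The mitochondrial ribosomal proteins, which form the separate ribosome of that organelle, had 30 of 53 tested genes above 0, with a median of 0.06. Mrps36 (0.56 ± 0.23) was the 1 of them at an unadjusted p under 0.05 in limma, against 1.77% of all probe sets higher. Its signals were 902.2 and 779.8 in deprived and 463.8 and 646.6 in non-deprived cortex. Translation initiation factors had a median of 0.05 over 31 genes, 19 above 0, and none at an unadjusted p under 0.05. The elongation and termination factors had a median of -0.05 over 11 genes, 5 above 0. Among them the release factor Gspt1 was at -0.61 ± 0.23, and Tpt1, whose messenger also starts with a TOP tract, at -0.10 ± 0.22. In these 11, deprived array 2 was above deprived array 1 by a median of 0.38.

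Genes for building ribosomes had 19 of 35 tested genes above 0, with a median of 0.006. Gar1, a protein of the particles that modify ribosomal RNA, had 1193 and 1318 against 832.3 and 811, a log2 fold change of 0.58 ± 0.19. Nop56, of the particles that methylate it, had 901.2 and 968.8 against 606.8 and 702.1, or 0.48 ± 0.21. These were the 2 genes of the 35 at an unadjusted p under 0.05 in limma, against 1.77% of all probe sets higher. Neither passed adjustment (adjusted p of 0.58 and 0.89 in limma). Bop1, needed for the large subunit, went the other way at -0.86 ± 0.42. The mTOR pathway and other regulators of TOP messengers had a median of -0.008 over 16 genes, 8 above 0. Pdpk1, the kinase that activates Akt and S6 kinases, had 975.3 and 1242 against 1738 and 1849, or -0.67 ± 0.19 (adjusted p = 0.44 in limma). Ddit4 had 1125 and 614.6 against 513.4 and 566.1, or 0.58 ± 0.27, with groups that did not overlap. The poly(A)-binding protein gene Pabpc1, itself a TOP messenger, gave 0.30 ± 0.19.

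Genes of nascent-chain handling, whose products sit at the exit of the ribosome, had a median of -0.05 over 13 genes, 6 above 0, with Naca at 0.20 ± 0.17 and the receptor of the signal recognition particle, Srpr, at -0.53 ± 0.20. Fau, which encodes a small-subunit protein under another name, was too dim to test, at a mean signal of 133.2. In limma no tested gene of these lists passed an adjusted p of 0.05, and 3 were higher and 3 lower at an unadjusted p under 0.05. The lists held 53, 31, 11, 35, 16 and 13 tested genes, in the order given. Over all tested probe sets, 1.77% were higher and 3.66% lower at that level. Whether the shift of the cytosolic ribosomal proteins differs from that of these lists was not tested.

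**Figure D4:**
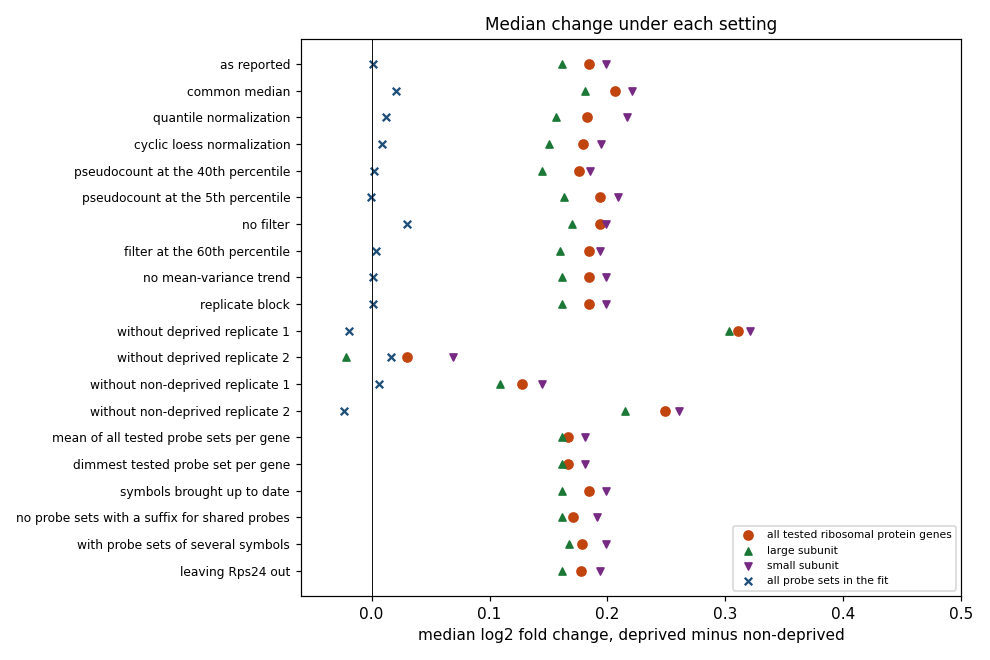
Median log2 fold change, deprived minus non-deprived, of the ribosomal protein genes (circles), the large subunit (upward triangles), the small subunit (downward triangles) and all probe sets in the fit (crosses, where a fit was redone) under each setting. The circles lie between 0.17 and 0.21 except where an array was left out, where they run from 0.03 to 0.31.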

How the data were processed

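The authors deposited linear intensities for each probe set and array, made with MAS5 per the submitters' processing notes. Its version, target value and detection calls are not given in the sources used here. Of the 12488 probe sets, 10855 had 1 gene symbol in the annotation table, 396 several and 1237 none. All 35 member symbols were current in the RefSeq gene table. Arrays were scaled to a common 2% trimmed mean, and 60.6 (the 20th percentile of mean signals) was added before log2. The 66 control probe sets and those with a mean signal under 142.9 (the 40th percentile) were left out, which kept 7458. Groups were compared in R 4.3.3 with limma 3.58.1, using lmFit and a trended eBayes. Tests were two-sided, and p-values were adjusted over the 7458 by Benjamini-Hochberg. The fit had 2 residual degrees of freedom, 11.6 in all with its prior, so the small number of arrays limits precision. The code was tested on simulated data.

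Every tested member is named, and all 4 signals are given for the 10 largest differences. Of each other list, up to 3 genes with the smallest p could be named. Signals of Rplp0, Rpl41, Rps29 and Rpl39l were added after they were seen. The members and lists were chosen with earlier results of these data known. The design text mentions cross-animal comparisons beside the others, which was read as pairing same-numbered arrays. Their deviations from the group means correlated with r = 0.27 over probe sets. The alternatives varied scaling, pseudocount, filter, variance model, pairing, arrays, probe set per gene and membership.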

Additional observations from a re-analysis of the deposited data

How the results depend on the processing

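The median of the ribosomal protein genes stayed above 0 in every alternative run, from 0.03 without deprived array 2 to 0.31 without deprived array 1, and in limma 0 of these genes passed an adjusted p of 0.05 in any of them, or 0.2 as reported. At an unadjusted p under 0.05 in limma, 0 passed as reported. With the replicate number as a block, 1 did (Rps10, against 3.57% of all probe sets higher), the median of 0.18 was the same by construction, and the lowest adjusted p of a member was 0.52. Adding the probe sets of several symbols, chosen after seeing the data, gave 48 of 54 above 0. Leaving Rps24 out gave a median of 0.18. The large minus small median ran from -0.091 to -0.018 with 1 array left out, and the large median was -0.02 without deprived array 2. The 8 probe sets past the threshold over the whole table became 3 with a common median, 1 with quantile and 1 with cyclic loess normalization, 0 without the variance trend and 40 with the replicate block, and 5 to 90 with 1 array left out. The cause was not tested.

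With 1 array left out, Rps10 ran from 0.16 to 0.59, Rps18 from 0.19 to 0.47, Rpl7 from 0.13 to 0.40, Rps4x from 0.10 to 0.40, Rpl13a from 0.17 to 0.42, Rps3a1 from 0.07 to 0.31, Rps7 from 0.01 to 0.46, Rps24 from 0.05 to 0.40 and Rpl8 from 0.07 to 0.37. Signs near 0 turned. Rpl41 gave 0.0016 with a common median and 0.032 with quantile normalization, and Rpl37a gave -0.025 with quantile and -0.012 with cyclic loess normalization. With 1 array left out, values ran from -0.38 to 1.29 for Rps13, -0.013 to 0.49 for Rpl19, -0.50 to 0.064 for Rps29, -0.11 to 0.49 for Rps19, -0.12 to 0.46 for Rpl7l1, -0.031 to 0.35 for Rpl7a, -0.34 to 0.043 for Rps27, -0.044 to 0.30 for Rpl10a, -0.58 to 0.64 for Rpl22, -0.23 to 0.17 for Rplp0, -0.25 to 0.21 for Rpl41, -0.14 to 0.17 for Rpsa and -0.17 to 0.17 for Rpl37a. Over single genes and alternatives, 313 values kept their sign and 23 did not. The 313 include changes of filter, variance trend and replicate block, which leave a gene's estimate the same by construction, so this tally is no measure of robustness. Where 1 array was left out, the spread of its group was taken from the other group.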
